A study of Mus musculus with 6 samples.

Results

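The urea cycle and the handling of glutamine were followed through 10 genes, taken by symbol from a table of raw read counts of mouse liver tumors that lists 24063 gene symbols. They are Cps1, Otc, Ass1, Asl, Arg1 and Nags, which carry out or start the urea cycle, the glutaminase gene Gls2, and Glul, Slc1a2 and Rhbg, which make glutamine or bring its substrates into the cell. All 10 were present in the table, and all 10 passed the filter on low counts, which kept 13572 genes. The tumors were induced with diethylnitrosamine (DEN), a carcinogen that hepatocytes activate to a DNA-alkylating agent, given once by intraperitoneal injection at 25 mg per kg to male mice 15 days old, and were taken at the 24-week time point. The control group held 3 wild-type (WT) mice labelled NR2E3+/+ and the other group 3 mice labelled NR2E3-/- (Nr2e3-/-), which lack the nuclear receptor NR2E3 from the germline on. Both groups are labelled C57BL/6, both received DEN, and no untreated liver entered the comparison. Each library came from bulk tumor tissue of 1 mouse.

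The liver disposes of ammonia by routes that lie in different places along the lobule. Hepatocytes near the portal vein (periportal) hold the urea cycle, which starts in the mitochondrion with carbamoyl phosphate and ends in the cytosol with the release of urea from arginine, and they also hold the liver glutaminase that frees ammonia from glutamine. A thin layer of hepatocytes around the central vein (pericentral) makes glutamine from glutamate and the ammonia that escaped the urea cycle. Glul and Slc1a2 are known in mouse liver as targets of Wnt/β-catenin signalling, which is strongest around the central vein. The comparison asked whether both sides of this division differed between WT and Nr2e3-/- tumors, and the levels are those of whole tumors, not of zones.

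Depth ran from 25250090 to 28690279 counts per library in WT tumors and from 15376261 to 28336305 in Nr2e3-/- tumors, where replicate 1 was the shallowest. Nr2e3 itself had 0 counts in all 6 libraries, which allows at most 0.105 to 0.195 counts per 1000000 counts (CPM) by a floor of 3 counts per library, so the genotype could not be checked from its own transcript. Nr2e3-/- replicate 1 stood apart from its group, since the median correlation of its log2 CPM values was 0.962 with the other Nr2e3-/- libraries and 0.979 with the WT libraries, and results are therefore also given without it. Hepatocyte markers were high throughout, with a summed level of 153000 to 188000 CPM in WT and 147000 to 169000 CPM in Nr2e3-/- tumors for 9 genes. Levels are given as CPM after trimmed mean (TMM) normalization, and differences as the log2 fold change of Nr2e3-/- over WT with its standard error (SE) from edgeR.

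Of the 10 genes, 8 had a positive and 2 a negative log2 fold change, with a median of 0.20 beside 0.01 over all genes tested. Rhbg was higher and Slc1a2 lower in Nr2e3-/- tumors at an unadjusted p under 0.05, and neither passed the Benjamini-Hochberg adjustment over all genes. No urea cycle enzyme reached an unadjusted p under 0.05. Thus 2 of 10 members had an unadjusted p under 0.05 where 21.5% of all genes tested did, 11.8% of all genes being higher and 9.72% lower. With edgeR, 0 of 10 members had an adjusted p under 0.05, beside 0.0958% of all genes. DESeq2 also called 0 of 10, beside 8.0% of the genes it gave an adjusted p, and limma-voom with sample quality weights called 1, Rhbg, beside 17.4% of all genes. Without Nr2e3-/- replicate 1, 37.7% of all genes had an unadjusted p under 0.05 and 21.8% passed the adjustment, while 2 of 10 members reached the first threshold and 0 the second. The groups did not overlap for 2 of 10 members, Slc1a2 and Rhbg, and for 26.8% of all genes. In bulk tissue, fewer cells of a type and less RNA per cell cannot be told apart, and this holds for every difference given here.

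**Figure D1:**
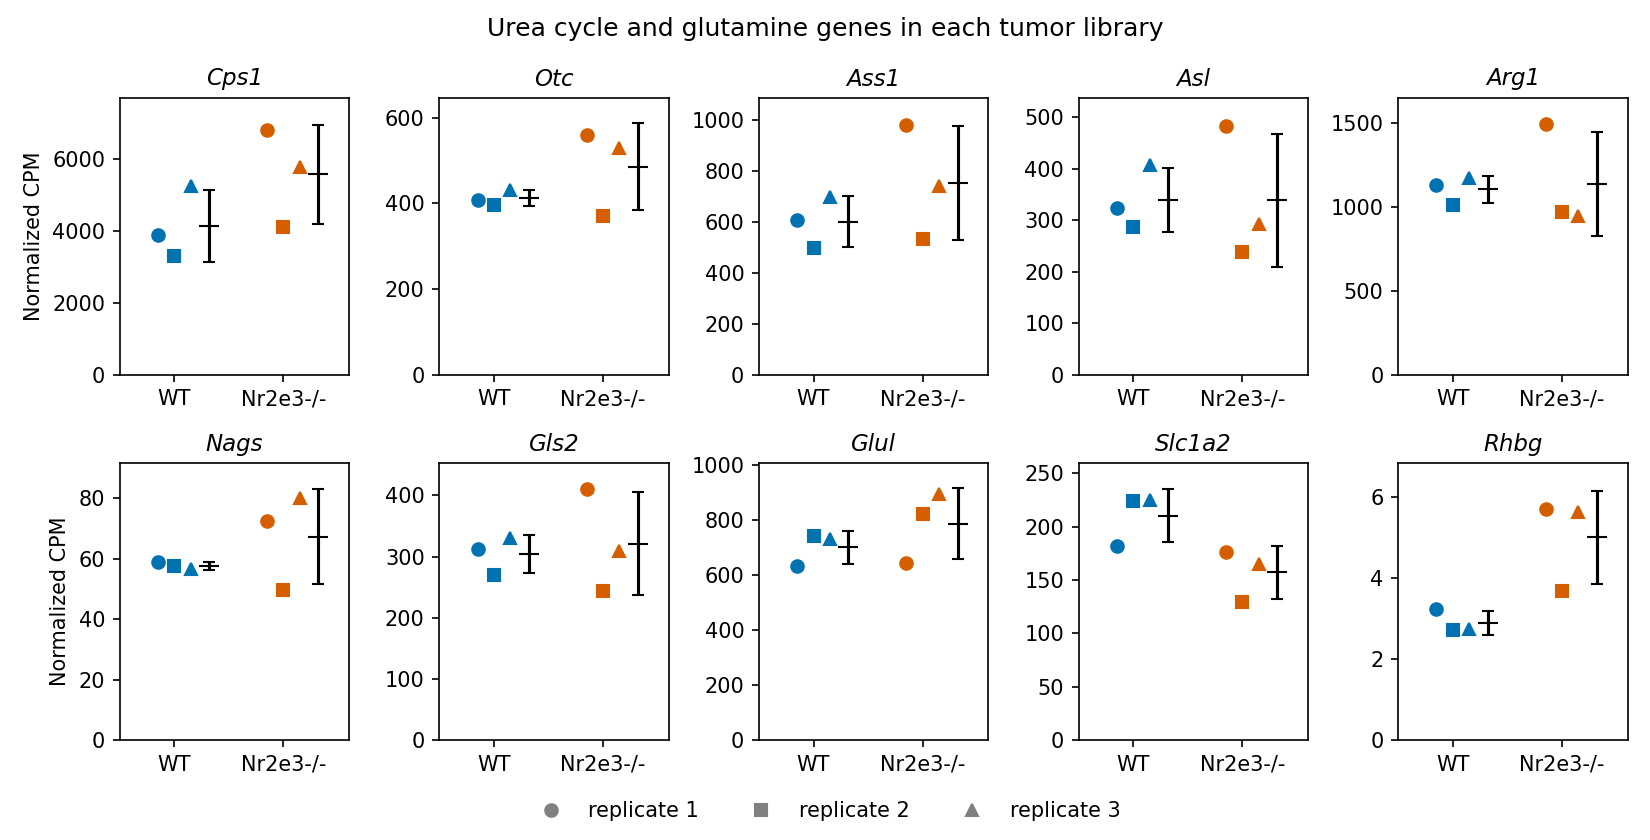
Normalized CPM (vertical axes, from 0) of the 10 genes in each WT (blue) and Nr2e3-/- (orange) tumor library, with the mean and SD of 3 libraries in black. The groups are apart for Slc1a2 and Rhbg, and Nr2e3-/- replicate 1 (circle) is the highest of all 6 libraries for Cps1, Otc, Ass1, Asl, Arg1, Gls2 and Rhbg.

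The mitochondrial steps come first. Cps1 encodes carbamoyl phosphate synthetase, which joins ammonia and bicarbonate in the entry step of the cycle, and lies on chromosome 1 from 67123026 to 67231259 on the plus strand (GRCm38, as are all positions here). It stood at 3882, 3307 and 5267 CPM in WT and at 6830, 4116 and 5795 CPM in Nr2e3-/- tumors. Nr2e3-/- replicates 1 and 3 lay above every WT library, while replicate 2 lay between WT replicates 1 and 3. The means were 4150 ± 1010 and 5580 ± 1370 CPM (SD, n = 3 each), a log2 fold change of 0.43 (SE 0.25, edgeR adjusted p = 0.353) with a 95% interval from -0.16 to 1.02. The data thus leave room for a fold between 0.893 and 2.02, and the exact two-sided permutation test over libraries gave p = 0.2, where the smallest p that 3 against 3 allows is 0.1.

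Otc, on chromosome X from 10252305 to 10321024 on the plus strand, encodes ornithine transcarbamylase, which makes citrulline from carbamoyl phosphate and ornithine. WT libraries held 408.4, 395.6 and 431.9 CPM, and Nr2e3-/- libraries 558.7, 369.7 and 528.6 CPM. The WT values were close together, and the Nr2e3-/- values fell on both sides of them. The log2 fold change was 0.24 (SE 0.17, edgeR adjusted p = 0.437). Nags, on chromosome 11 from 102145513 to 102149477 on the plus strand, encodes the synthase of N-acetylglutamate, the activator without which Cps1 protein does not work. It gave 59.06, 57.65 and 56.49 CPM in WT and 72.49, 49.67 and 80.03 CPM in Nr2e3-/- tumors. As for Otc, the WT libraries formed a narrow band with Nr2e3-/- replicate 2 below it and the others above it. Its log2 fold change was 0.22 (SE 0.18, edgeR adjusted p = 0.48).

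The cytosolic steps follow. Ass1, on chromosome 2 from 31470207 to 31520672 on the plus strand, encodes argininosuccinate synthase, which adds the nitrogen of aspartate. Its levels were 605.9, 498.0 and 697.8 CPM in WT and 981.1, 534.0 and 741.2 CPM in Nr2e3-/- tumors, so that Nr2e3-/- replicate 2 fell within the WT range and the others above it. The log2 fold change of 0.32 (SE 0.24) had an edgeR adjusted p of 0.448. Asl (minus strand of chromosome 5, 130011258 to 130029247) encodes the lyase that splits argininosuccinate into arginine and fumarate. It stood at 323.6, 287.1 and 407.8 CPM in WT and at 483.4, 239.0 and 291.8 CPM in Nr2e3-/- tumors, with the highest and the lowest of all 6 values in the Nr2e3-/- group. The means were 340 ± 61.9 and 338 ± 129 CPM (SD, n = 3 each), and the log2 fold change of -0.01 had a 95% interval from -0.65 to 0.63. Arg1 (minus strand of chromosome 10, 24915221 to 24927484) encodes liver arginase, which releases urea. It gave 1129, 1012 and 1170 CPM in WT and 1493, 970.9 and 942.8 CPM in Nr2e3-/- tumors, with 1 Nr2e3-/- library above and 2 below all WT libraries. Its log2 fold change was 0.04 (SE 0.20, edgeR adjusted p = 0.917).

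Gls2, the gene of liver-type glutaminase, lies on chromosome 10 from 128194457 to 128210004 on the plus strand, and its end overlaps Spryd4, which was counted separately at 528 to 917 counts per library. Its levels were 312.0, 269.3 and 330.2 CPM in WT and 410.5, 243.1 and 309.0 CPM in Nr2e3-/- tumors. As for Asl, the highest and the lowest value were both Nr2e3-/-. The log2 fold change was 0.08 (SE 0.20, edgeR adjusted p = 0.836).

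Leaving out single libraries moved these values. When Nr2e3-/- replicate 1 was left out, Cps1 had a log2 fold change of 0.26, Ass1 one of 0.09 and Otc one of 0.13, while Asl stood at -0.35, Arg1 at -0.20 and Gls2 at -0.13. The median over the 6 urea cycle enzymes was 0.23 with all libraries, 0.11 without that one and 0.40 without Nr2e3-/- replicate 2. None of these 6 enzymes had an edgeR adjusted p under 0.05 in any of these fits. Without Nr2e3-/- replicate 2, 5 of 10 members had an unadjusted p under 0.05 (Cps1, Otc, Ass1, Nags and Rhbg, all higher), beside 19.0% of all genes in either direction and 9.54% higher, and 0 members had an adjusted one, beside 0.131% of all genes. The direction for Asl, Arg1 and Gls2 was therefore not settled by these libraries.

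**Figure D2:**
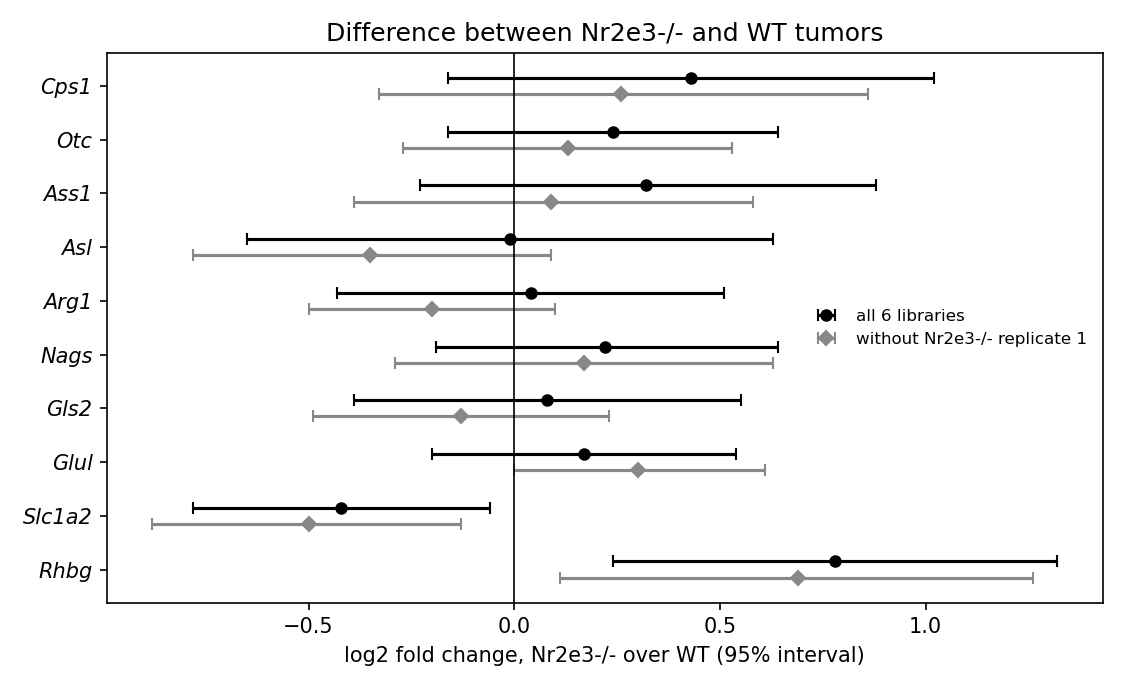
Log2 fold change of Nr2e3-/- over WT (horizontal axis) for each of the 10 genes, with the 95% interval from edgeR, for all 6 libraries (black circles) and without Nr2e3-/- replicate 1 (grey diamonds). With all libraries, only the intervals of Slc1a2 (-0.78 to -0.06) and Rhbg (0.24 to 1.32) lie on one side of 0, and without the replicate Arg1 (0.04 to -0.20) and Gls2 (0.08 to -0.13) cross 0 while Asl moves from -0.01 to -0.35.

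The pericentral genes did not share a direction. Glul encodes glutamine synthetase and lies on chromosome 1 from 153899944 to 153909723 on the plus strand, overlapped by Mir8114, which was counted separately at 50 to 154 counts per library. It stood at 630.5, 739.7 and 728.3 CPM in WT and at 641.4, 821.6 and 894.8 CPM in Nr2e3-/- tumors. The lowest library of each group was replicate 1, and the Nr2e3-/- values began within the WT range and ended above it. The log2 fold change of 0.17 (SE 0.16, edgeR adjusted p = 0.547) had a 95% interval from -0.20 to 0.54, and it was 0.30 (adjusted p = 0.134) without Nr2e3-/- replicate 1.

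Slc1a2 encodes GLT-1, a glutamate transporter that takes up the substrate of glutamine synthetase, and lies on chromosome 2 from 102658659 to 102790784 on the plus strand. WT libraries held 181.6, 223.7 and 225.1 CPM, and Nr2e3-/- libraries 176.4, 129.5 and 164.9 CPM. All Nr2e3-/- values lay below all WT values, the nearest being replicate 1 of each group. The means were 210 ± 24.8 and 157 ± 24.4 CPM (SD, n = 3 each). The log2 fold change was -0.42 (SE 0.15), with p = 0.0286 before and 0.185 after adjustment in edgeR, and the exact permutation test gave p = 0.1, the smallest it can give. Without Nr2e3-/- replicate 1 the log2 fold change was -0.50 (adjusted p = 0.0622). The unadjusted edgeR p was 0.0698 without Nr2e3-/- replicate 2, 0.0513 without Nr2e3-/- replicate 3, 0.088 without WT replicate 2 and 0.0912 without WT replicate 3, with log2 fold changes of -0.30, -0.46, -0.37 and -0.37.

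Rhbg encodes an ammonia channel of the Rhesus glycoprotein family and lies on the minus strand of chromosome 3 from 88242874 to 88254709. It was the least abundant of the 10 genes, with 84, 80 and 79 raw counts in WT and 86, 99 and 104 in Nr2e3-/- tumors. After normalization these came to 3.226, 2.707 and 2.74 CPM in WT and to 5.694, 3.675 and 5.624 CPM in Nr2e3-/- tumors. All Nr2e3-/- values lay above all WT values, and replicate 2 was the closest to them. The means were 2.89 ± 0.291 and 5.0 ± 1.15 CPM (SD, n = 3 each). The log2 fold change was 0.78 (SE 0.23, 95% interval 0.24 to 1.32), with p = 0.0108 before and 0.139 after adjustment in edgeR and p = 0.1 in the exact permutation test. DESeq2 gave an adjusted p of 0.0562 and limma-voom one of 0.0349 for it. The raw counts were close in all 6 libraries, and the library totals they were divided by were smaller in Nr2e3-/- replicates 1 and 3 than in any WT tumor. Nr2e3-/- replicate 2, whose total of 28336305 lay within the WT range, held 99 raw counts against 79 to 84 in WT. The part of depth in this difference was not tested. In the annotation an antisense gene overlaps Nags, another overlaps Slc1a2 and a readthrough gene overlaps Rhbg. None of these overlapping genes was counted separately, nor was Teddm2, which overlaps Glul. Without a stated strand setting, reads of such pairs cannot be told apart.

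Levels of other cell types' markers varied among the same libraries. The 7 bile duct markers summed to 57.3 to 119 CPM in WT and to 69.1 to 429 CPM in Nr2e3-/- tumors, with the highest value in replicate 2, which was also the lowest Nr2e3-/- library for Slc1a2 and Rhbg. The 5 neutrophil markers in the table summed to 3.33 to 5.48 CPM in WT and to 3.11 to 25.6 CPM in Nr2e3-/- tumors, and 6 macrophage markers to 227 to 291 and 211 to 492 CPM, again with replicate 2 the highest. The sum of the 3 red cell markers was apart between the groups, at 121 to 166 CPM in WT and 195 to 263 CPM in Nr2e3-/- tumors. Taken singly, Alas2 was apart, and the groups overlapped for Hbb-bs and Hba-a1. Stellate cell and fibroblast markers, 8 genes, summed to 349 to 433 and 211 to 390 CPM, 6 endothelial markers to 314 to 329 and 277 to 335 CPM, and 6 lymphocyte markers to 2.19 to 5.51 and 1.3 to 3.23 CPM. No marker on these lists was at 0 in all libraries. The part of these cells in the values of Slc1a2, Rhbg and the urea cycle genes was not tested.

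The promoters of Slc1a2, Glul and Nags are shown because they set pericentral genes of known Wnt/β-catenin dependence beside a urea cycle gene. They are RefSeq sequences of GRCm38.p6, plus strand, 250 bases up to the base before the start site, at chr2:102706188-102706437 for Slc1a2, chr1:153899679-153899928 for Glul and chr11:102145263-102145512 for Nags. The Slc1a2 window belongs to a start site inside the gene, and the counts do not tell its start sites apart. Capitals mark CTTTGA, letters of the TCF/LEF motif, AAGTCA, a half-site of the NR2E3 kind, and GGGCGG, letters of the Sp1 motif, each read on either strand.
Slc1a2: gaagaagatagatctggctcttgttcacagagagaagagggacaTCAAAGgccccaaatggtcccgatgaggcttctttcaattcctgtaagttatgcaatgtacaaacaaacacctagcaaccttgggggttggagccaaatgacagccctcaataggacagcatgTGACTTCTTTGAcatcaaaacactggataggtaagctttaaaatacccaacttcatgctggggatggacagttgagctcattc
Glul: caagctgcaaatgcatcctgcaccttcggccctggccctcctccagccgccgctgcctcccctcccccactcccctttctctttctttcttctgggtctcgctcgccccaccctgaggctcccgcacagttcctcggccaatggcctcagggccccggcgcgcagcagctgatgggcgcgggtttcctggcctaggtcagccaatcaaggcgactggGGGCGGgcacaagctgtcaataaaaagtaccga
Nags: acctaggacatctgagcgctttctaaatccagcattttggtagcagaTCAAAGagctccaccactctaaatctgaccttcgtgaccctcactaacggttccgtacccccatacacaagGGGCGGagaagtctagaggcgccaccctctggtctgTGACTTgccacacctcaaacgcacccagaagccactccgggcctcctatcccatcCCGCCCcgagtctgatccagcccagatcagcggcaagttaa
RefSeq held promoters of 5 of the 10 members, these 3 with Ass1 and Otc, and motifs were searched over 300 bases, 250 before and 50 from each start site. In Slc1a2, TGACTT begins at base -83 and is followed at once by CTTTGA at base -77, counting the base before the start site as -1, and TCAAAG begins at base -206. Nags holds TCAAAG at base -203 and TGACTT at base -96. Glul holds neither CTTTGA nor AAGTCA on either strand and has GGGCGG at base -33. CTTTGA was found in 16.0% of 32851 promoters of this length, AAGTCA in 15.1% and GGGCGG in 35.7%. CAAAG, core letters of the HNF4 motif contained in the reverse complement of CTTTGA, was found in Slc1a2, Nags and Otc and in 53.9% of all promoters, and TGACG, core letters of the cAMP response element, in Nags and in 20.8%. A match of letters is a description of the window and not evidence of binding.

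The levels of both sides were then set against each other within libraries. The mean log2 CPM of the 6 urea cycle enzymes was 9.03, 8.88 and 9.21 in WT and 9.57, 8.84 and 9.25 in Nr2e3-/- tumors. That of Glul, Slc1a2 and Rhbg was 6.18, 6.27 and 6.27 in WT and 6.44, 6.20 and 6.56 in Nr2e3-/- tumors. The urea cycle mean lay above the pericentral mean by 2.80 ± 0.17 in WT and by 2.82 ± 0.27 in Nr2e3-/- tumors on the log2 scale (SD, n = 3 each), so the groups differed by 0.02, less than the spread within either. This average joins Slc1a2 and Rhbg, which went opposite ways. The log2 ratio of Rhbg to Slc1a2 CPM was -5.78, -6.33 and -6.32 in WT and -4.93, -5.11 and -4.85 in Nr2e3-/- tumors, without overlap and with a difference of 1.18 (exact permutation p = 0.1, the smallest possible). This ratio combines the 2 members already seen to be apart and is no further evidence. The log2 ratio of Cps1 to Glul was 2.55 ± 0.35 and 2.81 ± 0.55 (exact permutation p = 0.5), and that of Gls2 to Glul -1.20 ± 0.23 and -1.31 ± 0.59 (exact permutation p = 0.8; SD, n = 3 each).

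The periportal genes varied in a shared order among replicates. Of 7 genes, the 6 urea cycle enzymes and Gls2, all but Nags were highest in WT replicate 3 within WT and in replicate 1 within Nr2e3-/- tumors. WT replicate 2 was the lowest WT library for all but Nags, and Nr2e3-/- replicate 2 the lowest of its group for all but Arg1. Over all genes, Nr2e3-/- replicate 1 was the highest of its group for 38.6% and replicate 2 the lowest for 34.9%, and in WT replicate 3 was the highest for 34.1% and replicate 2 the lowest for 32.2%. Glul did not share the order, being lowest in replicate 1 of both groups. Slc1a2 and Rhbg shared its Nr2e3-/- part, highest in replicate 1 and lowest in replicate 2, so that part was not particular to the periportal genes. Within WT, Slc1a2 was highest in replicate 3 and lowest in replicate 1, and Rhbg highest in replicate 1 and lowest in replicate 2. The coefficient of variation was larger among Nr2e3-/- than among WT libraries for all 10 members, though nearly equal for Cps1 (24.3% and 24.5%). It ran from 15.6% for Slc1a2 to 38.0% for Asl in Nr2e3-/- tumors and from 2.23% for Nags to 24.3% for Cps1 in WT. Over all genes the Nr2e3-/- libraries were also less alike, with median within-group correlations of 0.962 to 0.976 against 0.986 to 0.987 in WT. The share of all genes with a larger coefficient in Nr2e3-/- tumors was not counted. Together the 6 enzymes took 0.661%, 0.572% and 0.846% of all counts in WT and 1.02%, 0.597% and 0.8% in Nr2e3-/- tumors, of which Cps1 made up 59.5% to 69.2%.

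**Figure D3:**
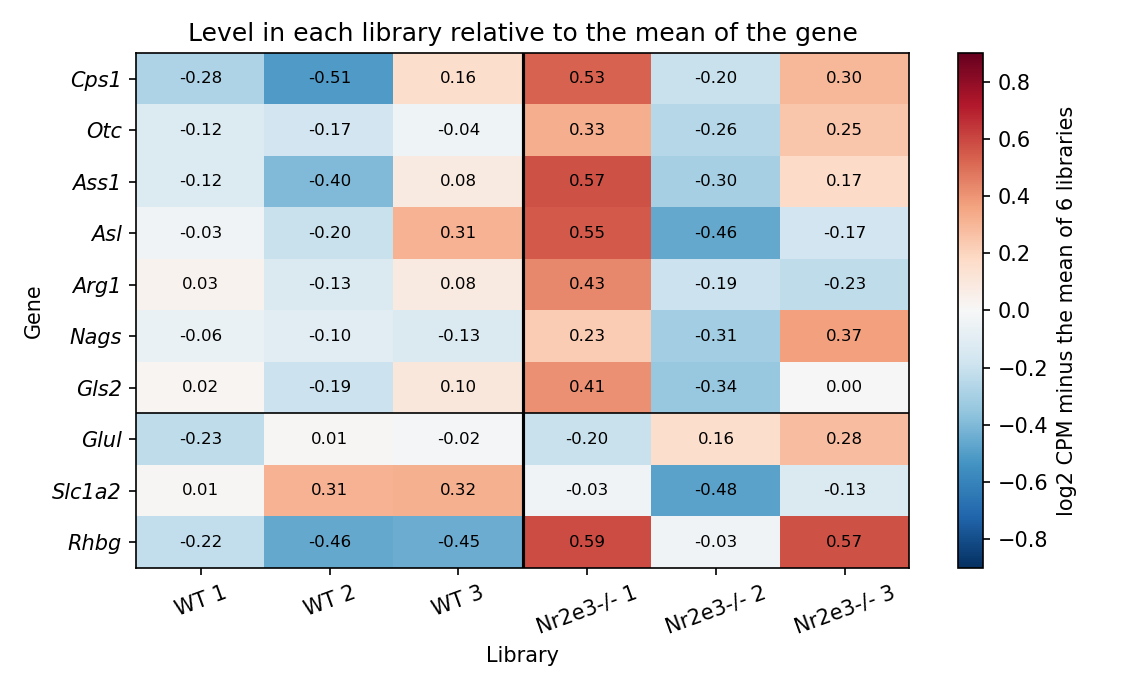
Log2 CPM of each gene (rows) in each library (columns) minus the mean of the gene over 6 libraries, with red above and blue below that mean and a line between WT and Nr2e3-/- libraries. The upper 7 rows, the periportal genes, are above their means in Nr2e3-/- replicate 1 and below them in Nr2e3-/- replicate 2. Glul is -0.20 and 0.16 there, Slc1a2 -0.03 and -0.48, and Rhbg 0.59 and -0.03.

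Compared with each other per kilobase of exon, the 10 genes spanned a wide range. Cps1 was highest on average at 876 CPM per kilobase, over a range of 595 to 1230, and Arg1 followed at 758 over 638 to 1010. These ranges overlap, and Cps1 was above Arg1 in 4 of 6 libraries. Ass1 came next at 399 CPM per kilobase (294 to 579), below every Arg1 value, and then Glul at 257 (218 to 309), which was below Ass1 in all 6 libraries although the ranges overlap. Gls2 at 116, Asl at 111 and Otc at 106 CPM per kilobase overlapped one another, Nags (30.9), Slc1a2 (15.1) and Rhbg (2.04 CPM per kilobase) followed with no overlap between neighbours. With exon lengths taken over all transcripts, a choice made after the data were seen, the mean of Arg1 was 502 CPM per kilobase, below Cps1 in all 6 libraries, Ass1 (280) was above Glul (224) in 4 of 6, and the middle genes came in the order Otc, Gls2 and Asl. The gene that makes glutamine lay among the urea cycle enzymes, while the glutamate transporter and the ammonia channel of the pericentral layer lay below all of them. The place of Slc1a2 below Nags rests on exon lengths of 12192 and 2028 bases. Before division by length Slc1a2 was the higher, at 129.5 to 225.1 CPM against 49.67 to 80.03 CPM. Which Slc1a2 transcripts the tumors held was not tested.

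**Figure D4:**
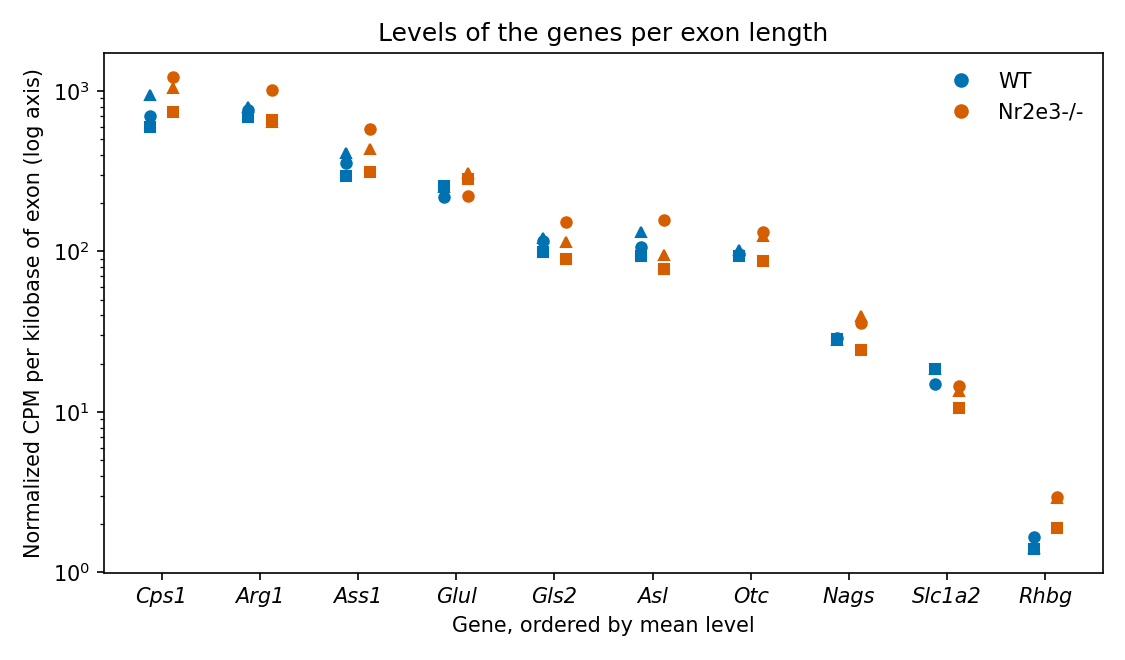
Normalized CPM per kilobase of exon (vertical log axis) for the 10 genes in order of their mean level, with 1 symbol per library (circle, square and triangle for replicates 1, 2 and 3), WT in blue and Nr2e3-/- in orange. Cps1 and Arg1 overlap at the top with these exon lengths, Gls2, Asl and Otc overlap in the middle, and Rhbg is lowest at 1.4 to 2.94 CPM per kilobase.

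Genes around the cycle were counted in fixed lists. In every list below, 0 genes had an adjusted p under 0.05 with edgeR when all libraries were used, so counts are those with an unadjusted p under 0.05 beside 21.5% of all genes. Counts without Nr2e3-/- replicate 1 stand beside 37.7% of all genes, 19.9% higher and 17.8% lower. Of 14 genes that carry or share urea cycle metabolites, 11 were tested, and 1 was higher and 0 lower, with a median log2 fold change of 0.04, while without Nr2e3-/- replicate 1 there were 1 higher and 4 lower (median 0.02). The higher gene with all libraries was Fh1, the fumarase that takes on the fumarate released by Asl, at 194, 168 and 232 CPM in WT and 254, 302 and 310 CPM in Nr2e3-/- tumors (log2 fold change 0.55, adjusted p = 0.132). Of 20 genes of glutamine and glutamate metabolism, 19 were tested, and 4 were higher and 0 lower (median 0.13), while without Nr2e3-/- replicate 1 there were 5 higher and 5 lower (median 0.04). Cad, whose protein uses glutamine nitrogen to begin pyrimidine synthesis, stood at 21.4, 16.2 and 14.1 CPM in WT and 34.3, 23.8 and 34.4 CPM in Nr2e3-/- tumors (log2 fold change 0.84, adjusted p = 0.116). The groups did not overlap for Fh1 or Cad.

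Enzymes that use arginine and ornithine included those of polyamine synthesis. Of 13 genes, 12 were tested, and 4 were higher and 0 lower, with a median log2 fold change of 0.04. Without Nr2e3-/- replicate 1, 13 were tested, and 5 were higher and 2 lower (median -0.06). Odc1, ornithine decarboxylase, stood at 21, 23.4 and 19.3 CPM in WT and at 31.2, 46.6 and 43.5 CPM in Nr2e3-/- tumors. The difference in log2 was 0.93 (SE 0.17, edgeR adjusted p = 0.093). Srm, spermidine synthase, stood at 32.7, 24.3 and 24.6 CPM in WT and at 42.3, 54.8 and 65.4 CPM in Nr2e3-/- tumors, with a difference of 0.99 on the log2 scale (SE 0.19, adjusted p = 0.093). Azin1, which protects ornithine decarboxylase from its antizyme, had a log2 fold change of 0.39 (adjusted p = 0.133). These 3 genes were higher in all 3 Nr2e3-/- libraries than in any WT library, and without Nr2e3-/- replicate 1 Odc1 and Srm passed the adjustment (adjusted p = 0.00322 and 0.007) and Azin1 did not (0.0643).

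Transporters and catabolic enzymes completed the pathway. Of 19 genes of amino acid and ammonia transport, 14 were tested, and 0 were higher and 2 lower (median 0.03), against 2 higher and 5 lower without Nr2e3-/- replicate 1 (median 0.10). The lower genes with all libraries were Slc38a7, a lysosomal glutamine transporter, at a log2 fold change of -0.41 (adjusted p = 0.157), and Slc1a4, a transporter of small neutral amino acids, with -0.76 (adjusted p = 0.167). Among 26 enzymes of amino acid breakdown in liver, 3 were higher and 0 lower, with a median of 0.01. Tat, tyrosine aminotransferase, stood at 755, 570 and 726 CPM in WT and at 2450, 874 and 1740 CPM in Nr2e3-/- tumors (log2 fold change 1.30, adjusted p = 0.127). Sds, serine dehydratase, which frees ammonia from serine, gave 151, 99.8 and 180 CPM in WT and 327, 274 and 250 CPM in Nr2e3-/- tumors (log2 fold change 0.98, adjusted p = 0.104), and its relative Sdsl had 0.56 (adjusted p = 0.109). Without Nr2e3-/- replicate 1 this list held 3 higher and 9 lower genes of 26, and its median was -0.25.

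Of 12 known regulators of urea cycle genes, 3 were higher and 2 lower (median log2 fold change -0.10), with the same counts without Nr2e3-/- replicate 1 (median -0.06). Cebpa, a transcription factor on which hepatocyte urea cycle expression depends, stood at 422, 419 and 428 CPM in WT and at 363, 307 and 322 CPM in Nr2e3-/- tumors (log2 fold change -0.36, adjusted p = 0.152). Its relative Cebpb, which responds to inflammatory signals, stood at 80.3, 91.6 and 75.2 CPM in WT and at 96.9, 227 and 184 CPM in Nr2e3-/- tumors (log2 fold change 1.04, adjusted p = 0.131). Hnf4a, which encodes a nuclear receptor of hepatocyte identity, had a log2 fold change of 0.50 (adjusted p = 0.174). The groups did not overlap for Cebpa, Cebpb or Hnf4a, with edgeR values as given.

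Zonation markers outside the cycle were compared last. Of 18 other periportal markers, 2 were higher and 1 lower, with a median log2 fold change of -0.01, against 2 higher and 3 lower without Nr2e3-/- replicate 1 (median -0.23). Sds was 1 of the higher genes, and Hsd17b6, a hydroxysteroid dehydrogenase, was the lower one at -0.56 (adjusted p = 0.142). Of 22 other pericentral markers, 0 were higher and 2 lower, with a median of -0.12 and 14 of 22 values negative. Lgr5, a receptor of the Wnt-amplifying R-spondins, stood at 6.72, 5.58 and 7.59 CPM in WT and at 5.23, 2.93 and 4.38 CPM in Nr2e3-/- tumors (log2 fold change -0.68, adjusted p = 0.187). Tnfrsf19, another gene with known Wnt dependence, stood at 8.83, 10.4 and 9.92 CPM in WT and at 6.09, 2.23 and 2.54 CPM in Nr2e3-/- tumors (log2 fold change -1.45, adjusted p = 0.123). Without Nr2e3-/- replicate 1, 6 of these 22 markers were lower and 0 higher at an unadjusted p under 0.05, beside 17.8% of all genes lower. After adjustment with edgeR 4 of the 22 markers passed, all of them lower. Of the 13572 genes tested with all libraries, 1323 passed as lower in that fit. In either direction 21.8% of all genes passed. With all libraries, Slc1a2 had the negative sign of 14 of the 22 markers, Lgr5 and Tnfrsf19 among them. Glul and Rhbg had the positive sign of the other 8.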

How the data were processed

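RNA-seq libraries of DEN-induced liver tumors from 3 WT and 3 Nr2e3-/- mice were used, grouped by the genotype in the labels, which stands under a shifted heading there. Dose, age and time point are from the study's methods. Per the study's methods and the submitters' processing notes, the authors aligned single-end TruSeq reads to mm10 with TopHat and counted them per gene with featureCounts. Tool versions, the annotation and whether counting used strand are not given in the sources used here. The authors deposited raw counts, which were used. Their normalized table, each library's counts times a constant, and their table of DESeq2 fold changes and p-values were not used.

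Counts were filtered with filterByExpr (minimum count 10, minimum total 15), normalized by TMM and tested with the two-sided quasi-likelihood test of edgeR 4.0.16 in R 4.3.3, with Benjamini-Hochberg adjustment over 13572 genes and a threshold of 0.05. Log2 CPM used a prior count of 2. Exact permutation tests used scipy 1.17.1. The scripts were tested on simulated data. Alternatives were DESeq2 1.42.0, limma-voom (limma 3.58.1), other normalizations and filters, a replicate block and leaving out each library. Positions and exon lengths of protein-coding transcripts came from GENCODE M21, promoters from RefSeq.

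The members and lists were chosen with earlier results of these data known. Named list genes had an unadjusted p under 0.05 and groups that did not overlap, at most 4 per list by p, and some named by this rule are not reported here. The p-values measure the spread between mice, with 1 tumor library each. Bounds from a count of 0 cover counting error only.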

Additional observations from a re-analysis of the deposited data

How the results depend on the processing

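Rhbg and Slc1a2 kept their direction under all 13 alternatives, at log2 fold changes of 0.69 to 0.97 and -0.51 to -0.30, with adjusted p from 0.0349 to 0.395 and from 0.0622 to 0.437. Cps1 (0.26 to 0.63), Otc, Ass1, Nags and Glul also kept theirs. The number of members with an unadjusted p under 0.05 was 2, 1 with a replicate block and 1 to 5 when each library was left out in turn (5 without Nr2e3-/- replicate 2). The count with an adjusted p under 0.05 was 0, and 1 with limma-voom, where Rhbg stood at 0.81 (adjusted p = 0.0349). The cause of these shifts was not tested. Asl turned to 0.0031 with DESeq2 and ran from -0.35 to 0.19 when libraries were left out. Arg1 turned to -0.12 with limma-voom and -0.03 with upper quartile normalization and ran from -0.20 to 0.16 when libraries were left out, and Gls2 from -0.13 to 0.25. The median of the 6 urea cycle enzymes ran from 0.11 to 0.40 and that of the 3 pericentral genes from 0.07 to 0.30 with a library left out. With exon lengths over all transcripts, added after the data were seen, Otc ranked 5, Gls2 6 and Asl 7. The labels give same-numbered libraries only a shared number. Their log2 CPM deviations from the group means correlated at -0.08, 0.22 and 0.02, and those of other pairs across the groups at -0.26 to 0.22. With 3 libraries per group these values cannot settle whether the libraries were paired. Over all genes the replicate block left 2438 genes with an unadjusted p under 0.05 in place of 2916. It left 0 in place of 13 with an adjusted one in edgeR. Over all genes DESeq2 called 1096 of 13701 and limma-voom 2360 of 13572. The depth of 79 to 104 raw counts limits the precision for Rhbg.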

Other observations

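The genes whose log2 CPM followed Cps1 most closely over the 6 libraries, among 7955 genes with a mean of at least 10 CPM, were Eif2s3y (Pearson r = 0.993), Daglb (0.986), Ola1 (0.982), Oxnad1 (0.979) and Dennd4c (0.974). Among the members, Ass1 (0.954) ranked 19 and Otc (0.881) 119, followed by Gls2 (0.781), Nags (0.688), Asl (0.674) and Arg1 (0.559), while Glul stood at 0.008 and Slc1a2 at -0.124. The genes closest to Glul were Sp3 (0.988), Cnot2 (0.987), Ctcf (0.985), Slc12a2 (0.982) and Gemin4 (0.981). Glul ran opposite to Arg1 (-0.786), Asl (-0.638) and Gls2 (-0.557), and less so to Slc1a2 (-0.376) and Ass1 (-0.26). It stood at -0.044 with Otc and at 0.101 with Nags. These values describe 6 libraries of both genotypes that also differ in depth, and they carry no test.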
